A study of Mus musculus with 12 samples.

Results

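The genes described here are 40 cell cycle and proliferation genes of the mouse, chosen by symbol and matched to Ensembl identifiers. All 40 were listed in both count tables, among 35697 identifiers in the table of 2018 and 55637 in the table of 2022. RNA-seq was run on brain tissue of adult male C57BL/6J mice in 4 groups of 3. The study's text describes this tissue as pericontusional. In the 2018 batch, sham mice (labelled SH_WT) underwent surgery with no blow, and TBI mice (TBI_WT) received a controlled cortical impact (CCI), which strikes the exposed cortex, 7 days before collection. In the 2022 batch, TBI mice were compared with TBI mice that were also injected intraperitoneally with zileuton, an inhibitor of 5-lipoxygenase (5-LOX), at 10 mg per kg per day in corn oil. The source labels place the 3 TBI mice of 2022 at 7 days and the zileuton-treated mice at 7, 8 and 9 days after injury. The library names of the 3 zileuton-treated mice all give 7 days. The columns, numbered 2, 3 and 6 in each group, could not be tied to those labels. By the source labels, treatment cannot be fully told apart from time after injury. The labels call the controls of 2022 only TBI, while the study's text calls its controls vehicle-treated. The labels give each library a batch, which is a date of 2018 or 2022, and each batch holds 1 comparison, so levels were not tested across batches.

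A dividing cell passes through G1, S, G2 and M. D-type and E-type cyclins with their kinases release E2F factors in G1, E2F-driven genes such as the Mcm helicase subunits copy the DNA in S phase, and A-type and B-type cyclins with Cdk1 drive mitosis, in which the Aurora and Polo kinases, the kinetochore and the spindle motors separate the chromosomes. Late genes of the cycle are commonly controlled through a CHR element and CCAAT boxes near their start, read by the DREAM, MYB-MuvB and FOXM1 complexes and by NF-Y, whereas replication genes often carry E2F sites. In the adult brain few neurons re-enter the cycle, and after injury the cells known to divide are mainly microglia, infiltrating myeloid cells, oligodendrocyte precursors, astrocytes, and vascular and fibroblast-like cells.

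Promoters are shown for Ccnb1, Ccnb2, Cdk1, Top2a and Mcm6, a selection from the mitotic and replication members called higher after TBI. Mcm6 is the only replication member shown. Ccne1 and E2f1, the members called lower that have a promoter in the table, are shown as well. RefSeq promoters of GRCm38.p6, each 300 bases long (250 before and 50 after the start), were found for 32 of the 40 members. The printed stretch covers 130 bases before the start and 20 after it, read along the gene, 5′ to 3′. Capitals mark motif matches on either strand. A CHR element was read as TTTGAA, with TTTAAA as its other form, so that the opposite strand shows TTCAAA for the former. A CCAAT box has the letters of its name and reads ATTGG on the opposite strand. An E2F site was TTCCCGC, while the variants TTGGCGC, then TTCGCGC, and finally TTGCCGC were also accepted. The capitals GCGCCAAT in Ccnb1 join an E2F site and a CCAAT box that overlap, and the capitals TTGGCGCGAA in Mcm6 join overlapping E2F sites of both strands.
Ccnb1 (chr13:100786467-100786616, minus strand): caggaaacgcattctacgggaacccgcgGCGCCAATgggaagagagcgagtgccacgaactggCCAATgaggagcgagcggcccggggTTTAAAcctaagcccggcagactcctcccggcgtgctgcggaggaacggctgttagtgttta
Ccnb2 (chr9:70421535-70421684, minus strand): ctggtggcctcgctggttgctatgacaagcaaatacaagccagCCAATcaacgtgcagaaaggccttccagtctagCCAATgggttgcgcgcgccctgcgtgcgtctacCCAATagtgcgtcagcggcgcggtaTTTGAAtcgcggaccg
Cdk1 (chr10:69352893-69353042, minus strand): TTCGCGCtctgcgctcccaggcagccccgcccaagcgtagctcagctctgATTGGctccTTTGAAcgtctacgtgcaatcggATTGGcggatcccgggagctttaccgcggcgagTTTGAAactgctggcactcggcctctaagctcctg
Top2a (chr11:99024170-99024319, minus strand): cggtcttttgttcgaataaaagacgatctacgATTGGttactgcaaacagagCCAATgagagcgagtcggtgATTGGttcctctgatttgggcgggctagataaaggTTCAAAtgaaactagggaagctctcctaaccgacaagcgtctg
Mcm6 (chr1:128359686-128359835, minus strand): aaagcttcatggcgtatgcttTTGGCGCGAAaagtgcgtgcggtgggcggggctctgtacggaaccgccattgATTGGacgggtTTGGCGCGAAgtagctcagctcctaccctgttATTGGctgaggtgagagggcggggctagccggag
Ccne1 (chr7:38107471-38107620, minus strand): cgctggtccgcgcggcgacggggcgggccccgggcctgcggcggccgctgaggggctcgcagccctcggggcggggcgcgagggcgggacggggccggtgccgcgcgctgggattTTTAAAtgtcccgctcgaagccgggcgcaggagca
E2f1 (chr2:154569407-154569556, minus strand): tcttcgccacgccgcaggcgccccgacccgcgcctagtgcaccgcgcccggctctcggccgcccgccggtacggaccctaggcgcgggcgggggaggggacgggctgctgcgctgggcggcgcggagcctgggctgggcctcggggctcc

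The B-type cyclins, Cdk1 and Top2a each held 2 or more CCAAT boxes and a CHR element closer to the start than any of those boxes. The CHR element of Ccnb1 began 42 bases before the start and those of Cdk1 at 71 and 15 bases before it. Mcm6 held E2F sites and CCAAT boxes but no CHR element in this stretch, and none of the searched letters occurred in the stretch of E2f1. A match is a run of letters and not a measured binding site.

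Of the 21 mitotic members with a promoter, 19 (90.5%) held a CHR element, 19 (90.5%) a CCAAT box and 18 (85.7%) both. A member was counted if any of its starts held the motif. Over all 32851 promoters of the table, where each start counts by itself, the shares were 27.6% for the CHR element, 37.4% for the CCAAT box and 10.7% for both. Of the 7 replication members, 6 (85.7%) held a CCAAT box, 3 (42.9%) a CHR element and 3 (42.9%) both, so neither motif was particular to the mitotic members. E2F sites stood in 4 (57.1%) of the replication members and in 4 (19.0%) of the mitotic ones, against 9.57% of all promoters. Of the other 4 members (E2f1, Cdkn2c, Ccne1 and Cdkn1a) 1 held a CHR element, namely Ccne1, and none held both a CHR element and a CCAAT box. The counted shares are a description, since members were chosen for their function.

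**Figure D1:**
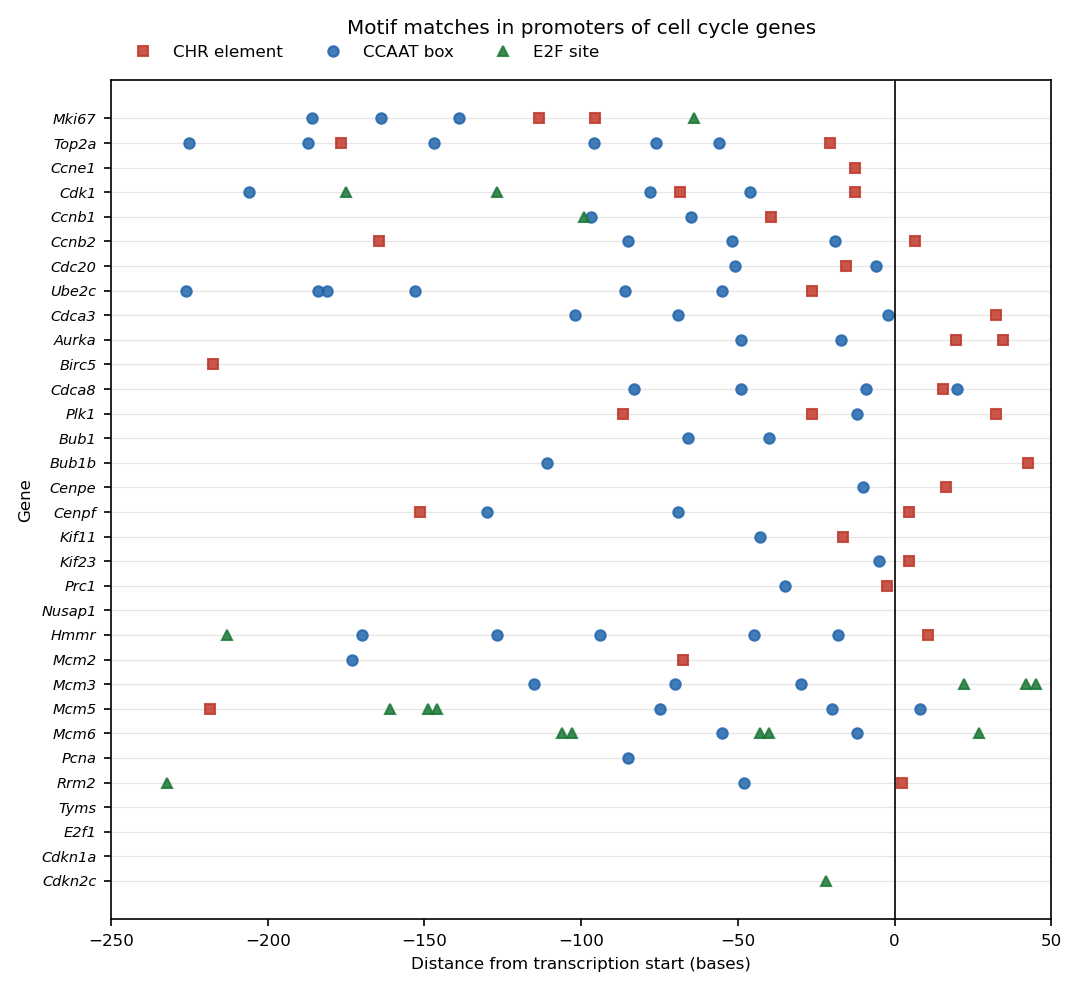
Motif matches in the promoters of the 32 members found in the RefSeq table; the horizontal axis is the distance from the transcription start in bases, squares are CHR elements, circles CCAAT boxes and triangles E2F sites on either strand. CCAAT boxes lie mostly before the start and CHR elements near it in the mitotic genes, 18 of 21 of which hold both.

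Library totals ran from 42929862 to 48684674 counts in 2018 and from 27845562 to 35453257 estimated counts in 2022. Gfap, the filament protein of reactive astrocytes, checks the TBI labels: its 9116, 10221 and 6723 counts in sham mice compare with 110256, 126444 and 112689 in TBI mice. Markers of neurons summed to between 10400 and 10500 counts per 1000000 counts of the library (CPM) in sham mice, as brain tissue would give. The embryonic globin genes Hba-x (14, 46 and 38 counts) and Hbb-y (70, 183 and 138 counts) were present in the sham libraries and at 0 to 6 counts in the TBI libraries. Embryonic RNA could carry cell cycle transcripts, and the part of these sham libraries' embryonic globin signal in the levels below was not tested. Total RNA of a tissue cannot tell apart more dividing cells from more RNA per cell, a limit that holds for every result below.

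Most of the cell cycle genes were higher after TBI. In the comparison of TBI with sham, edgeR's quasi-likelihood test called 27 of the 40 members higher and 3 lower at an adjusted p under 0.05, over 19536 genes tested, while 10 did not pass. Among all genes tested 28.0% were called, 16.8% as higher and 11.2% as lower. The median log2 fold change of the members was 1.03, against 0.02 over all genes tested, and it was above 0 for 37 members, as for 51.5% of all genes, and below 0 for 3, as for 48.5%. All 40 members passed the filter on low counts in both comparisons.

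Of the 34 members other than the G1 cyclins, E2f1 and the CDK inhibitors, 25 were called higher and none lower, with a median log2 fold change of 1.15 and a range of 0.31 to 2.02. The 3 genes called lower, Ccnd2, Ccne1 and E2f1, act in G1 or at its exit, where Ccnd1 and Cdkn2c were called higher. The phases were not compared by a test. Levels of the 3 TBI mice lay above those of all 3 sham mice for 34 members, against 24.6% of all genes tested, and below them for 3 members, against 19.8%.

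**Figure D2:**
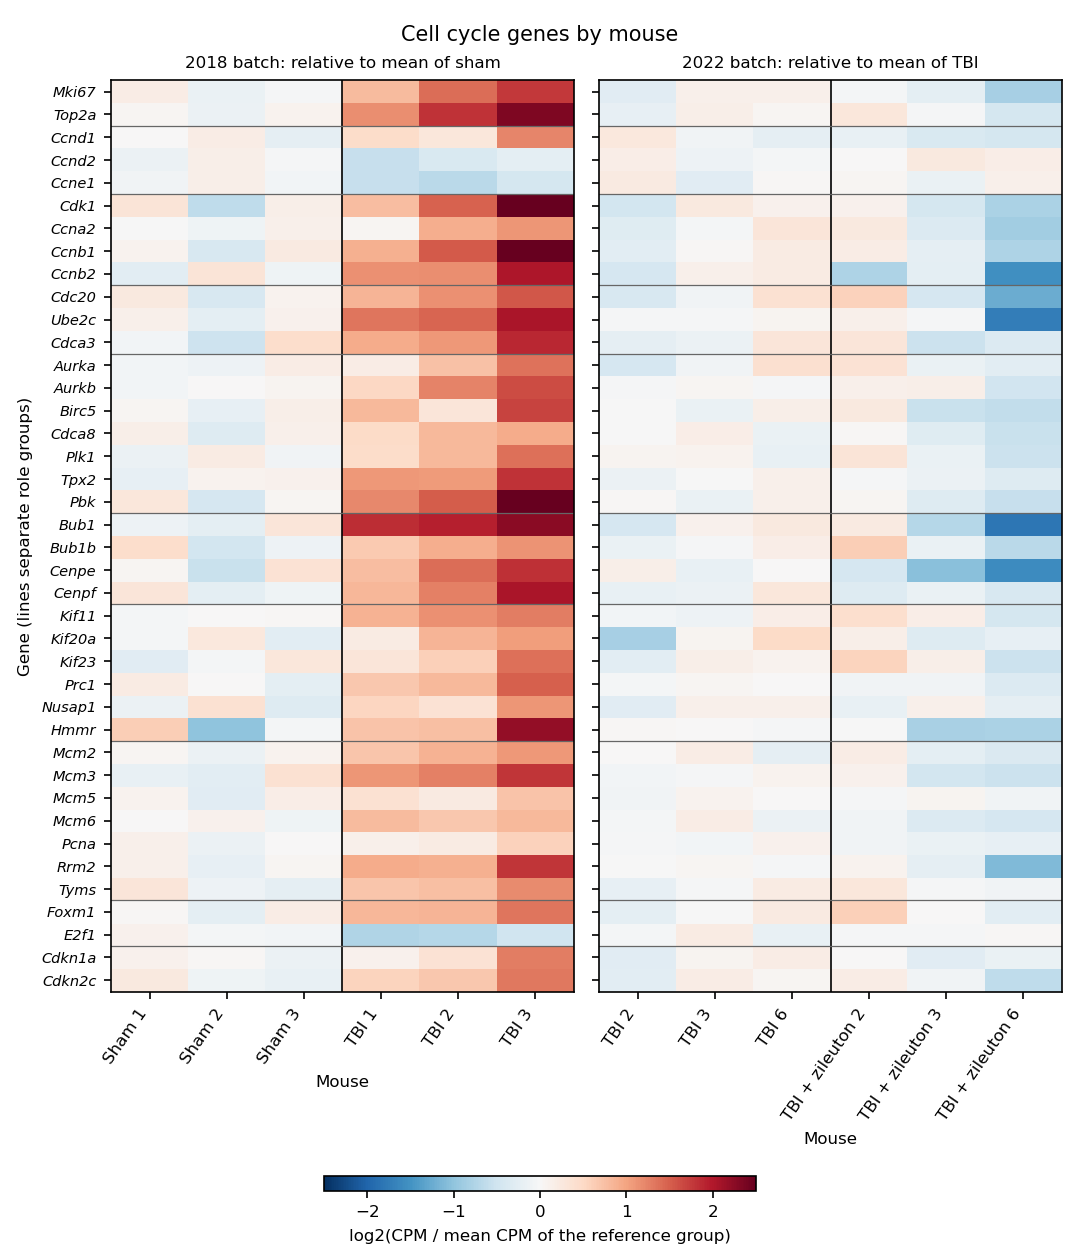
Heat map of the 40 members (rows, grouped by role) in each mouse (columns); colour is log2 of the CPM over the mean CPM of the sham mice (left, 2018) or of the TBI mice (right, 2022), capped at the ends of the colour scale. In 2018 TBI mouse 3 is the darkest red column, and Ccnd2, Ccne1 and E2f1 are blue; in 2022 zileuton mouse 6 is the bluest column.

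Mki67 (ENSMUSG00000031004), whose product Ki-67 coats mitotic chromosomes and is the usual histological mark of dividing cells, was higher in TBI mice. Its level was 5.99, 4.67 and 5.16 CPM in sham mice 1 to 3 and 9.17, 13.9 and 18.0 CPM in TBI mice 1 to 3. Every TBI mouse lay above every sham mouse, at a mean of 13.7 ± 4.43 CPM against 5.27 ± 0.670 CPM (SD, n = 3), and the log2 fold change was 1.38 (SE 0.237, adjusted p = 0.00303). Top2a (ENSMUSG00000020914), the topoisomerase that untangles replicated DNA, stood at 5.11, 4.47 and 5.24 CPM in sham mice and at 11.1, 17.2 and 24.8 CPM in TBI mice. The groups did not overlap, and the mean rose 3.58-fold (log2 fold change 1.84, SE 0.262, adjusted p = 0.00113).

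The cyclins and kinase of late phases rose, apart from Ccna2. Cdk1 (ENSMUSG00000019942), the kinase that drives entry into mitosis, was at 1.80, 0.930 and 1.60 CPM in sham mice and at 2.46, 4.02 and 8.89 CPM in TBI mice, with no overlap (log2 fold change 1.82, SE 0.466, adjusted p = 0.0189). Its B-type partner Ccnb1 (ENSMUSG00000041431) was at 1.46, 1.04 and 1.60 CPM in sham mice and at 2.54, 3.94 and 8.73 CPM in TBI mice (log2 fold change 1.89, SE 0.436, adjusted p = 0.0124). In both genes the TBI mice were far apart, and the highest, mouse 3, had more than 3 times the level of the lowest, mouse 1. Ccnb2 rose by a log2 fold change of 1.49 (SE 0.312, adjusted p = 0.00776). Ccna2, the cyclin of S and G2 phase, was at 2.95, 2.77 and 3.24 CPM in sham mice and at 3.07, 5.62 and 6.45 CPM in TBI mice. TBI mouse 1 lay within the range of the sham mice, and the difference did not pass (log2 fold change 0.76, adjusted p = 0.0705). The calls of Cdk1 and Ccnb1 were lost without sham mouse 2 and in limma on log2(FPKM + 1), and that of Cdk1 also in limma on log2(FPKM + 0.1) and without sham mouse 3.

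The 3 genes of the anaphase-promoting complex and of mitotic entry all rose. They are Cdc20, which activates the complex (log2 fold change 1.21), Ube2c, the ubiquitin-conjugating enzyme that serves it (1.64), and Cdca3, a trigger of mitotic entry (1.36). Adjusted p-values in this set ran from 0.00172 for Ube2c to 0.0158 for Cdca3, and the call of Cdca3 was lost without sham mouse 1 or 2.

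Of the 7 mitotic kinases and passenger proteins 5 were called higher, with log2 fold changes from 0.75 to 1.88. Pbk, a mitotic kinase, rose most (1.88, adjusted p = 0.00625), followed by Tpx2, which activates Aurora A on the spindle (1.36, adjusted p = 0.00281), and Aurkb, the kinase of the chromosomal passenger complex (1.20, adjusted p = 0.0208). Plk1, the Polo kinase, and Cdca8, the passenger protein borealin, were called with adjusted p-values of 0.0331 and 0.0394. The calls of Aurkb, Plk1 and Cdca8 were each lost without TBI mouse 3 or without any of the sham mice. That of Aurkb was also lost in limma on log2(FPKM + 1), that of Plk1 with a trend with gene length removed and with a replicate block, and that of Cdca8 in limma on both scales, with no filter, with a replicate block and without TBI mouse 2. Aurka (0.84, adjusted p = 0.0716) and Birc5, which encodes survivin (1.05, adjusted p = 0.0554), did not pass, although no TBI mouse fell below a sham mouse in either.

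All 4 kinetochore genes were called higher, and Bub1 (ENSMUSG00000027379), the checkpoint kinase, had the largest log2 fold change of the 40 members. It was at 17, 16 and 24 counts in sham mice and at 73, 77 and 84 counts in TBI mice. The TBI mice lay close together here, and none of them approached the sham range (log2 fold change 2.02, SE 0.310, adjusted p = 0.00172). Cenpf and Cenpe, which link microtubules to the kinetochore, rose by 1.46 and 1.40 on the log2 scale, and Bub1b, which delays anaphase, by 0.91 (adjusted p = 0.0297), a call lost without TBI mouse 2 or 3, without sham mouse 2 or 3 and with a replicate block.

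The spindle motor and midzone genes passed least often, 2 of 6. Kif11, the motor that pushes the spindle poles apart, was at 2.57, 2.68 and 2.71 CPM in sham mice and at 4.84, 5.85 and 6.43 CPM in TBI mice, without overlap (log2 fold change 1.10, SE 0.181, adjusted p = 0.00241). Prc1, which bundles microtubules in the midzone, also passed (1.03, adjusted p = 0.0155), though not without sham mouse 2 or 3 or in limma on log2(FPKM + 1) or log2(FPKM + 0.1). Kif20a, Kif23, Nusap1 and Hmmr had log2 fold changes of 0.74, 0.83, 0.70 and 1.39 and adjusted p-values of 0.0689 to 0.0849. Hmmr, a spindle-associated protein, was uneven in both groups, at 1.40, 0.454 and 0.884 CPM in sham mice and at 1.50, 1.54 and 4.16 CPM in TBI mice.

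Of the replication genes 5 of 7 were called higher. Mcm2 (ENSMUSG00000002870), a subunit of the replicative helicase, was at 5.75, 5.02 and 5.89 CPM in sham mice and at 9.00, 10.2 and 11.8 CPM in TBI mice, with no overlap (log2 fold change 0.89, SE 0.153, adjusted p = 0.00300). The helicase subunits Mcm3 and Mcm6 rose by 1.41 and 0.76, and Rrm2 and Tyms, which supply deoxynucleotides, by 1.27 and 0.89 on the log2 scale. The call of Tyms was lost without TBI mouse 3, without sham mouse 2 or 3 and with a replicate block. Mcm5 (ENSMUSG00000005410) was at 9.21, 7.11 and 9.79 CPM in sham mice and at 11.4, 10.2 and 14.3 CPM in TBI mice. Its groups did not overlap but lay near each other, and it did not pass (log2 fold change 0.46, adjusted p = 0.0841). Pcna (ENSMUSG00000027342), the sliding clamp of DNA polymerases, was at 60.7, 50.4 and 56.4 CPM in sham mice and at 61.0, 64.0 and 82.8 CPM in TBI mice. TBI mouse 1 was only just above sham mouse 1, and the difference did not pass (log2 fold change 0.31, SE 0.125, adjusted p = 0.0975). Mcm5 and Pcna were the only members that passed in none of the alternatives tried.

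The G1 cyclins went both ways. Ccnd1 (ENSMUSG00000070348), the D-type cyclin that growth factors induce, was at 28.1, 31.7 and 23.9 CPM in sham mice and at 38.6, 33.9 and 65.3 CPM in TBI mice. All TBI mice lay above the sham mice, TBI mouse 3 by far the most (log2 fold change 0.72, SE 0.227, adjusted p = 0.0440). This call was lost without TBI mouse 3, without any of the sham mice, and under 5 of 11 other alternatives. Ccnd2 (ENSMUSG00000000184), the D-type cyclin with the highest level in sham brain, was at 85.3, 105 and 92.6 CPM in sham mice and at 63.1, 72.2 and 79.1 CPM in TBI mice. It was lower in all 3 TBI mice (log2 fold change −0.40, SE 0.106, adjusted p = 0.0229), a call lost without TBI mouse 1, without sham mouse 2, in limma on log2 FPKM and with a trend with gene length removed. Ccne1 (ENSMUSG00000002068), the E-type cyclin of the G1 to S transition, was at 16.0, 18.9 and 16.3 CPM in sham mice and at 11.5, 10.7 and 12.6 CPM in TBI mice. The groups did not overlap, and the level fell by 0.55 on the log2 scale (SE 0.118, adjusted p = 0.00862).

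The transcription factors also went both ways. Foxm1 (ENSMUSG00000001517), an activator of mitotic genes, was at 2.29, 1.88 and 2.55 CPM in sham mice and at 3.96, 4.04 and 5.64 CPM in TBI mice (log2 fold change 1.02, SE 0.225, adjusted p = 0.00994). E2f1 (ENSMUSG00000027490), an activator of replication genes, was at 21.7, 19.5 and 19.1 CPM in sham mice and at 12, 12.2 and 14.2 CPM in TBI mice. Neither gene's groups overlapped, and E2f1 had the lowest log2 fold change of the members, −0.65 (SE 0.112, adjusted p = 0.00301).

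Of the CDK inhibitors, Cdkn2c (ENSMUSG00000028551), which encodes p18 and blocks Cdk4 and Cdk6, was at 6.99, 5.49 and 5.16 CPM in sham mice and at 8.62, 9.36 and 14.6 CPM in TBI mice. The groups did not overlap, and it was called higher (log2 fold change 0.88, SE 0.224, adjusted p = 0.0184), a call lost without sham mouse 2 or 3. Cdkn1a (ENSMUSG00000023067), which encodes p21, was at 22.8, 21.4 and 19.0 CPM in sham mice and at 22.8, 26.9 and 50.9 CPM in TBI mice. TBI mouse 1 was level with sham mouse 1 and TBI mouse 3 stood far above all others, and the difference did not pass (log2 fold change 0.67, SE 0.263, adjusted p = 0.0897). DESeq2 called it, with an adjusted p of 0.0245.

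**Figure D3:**
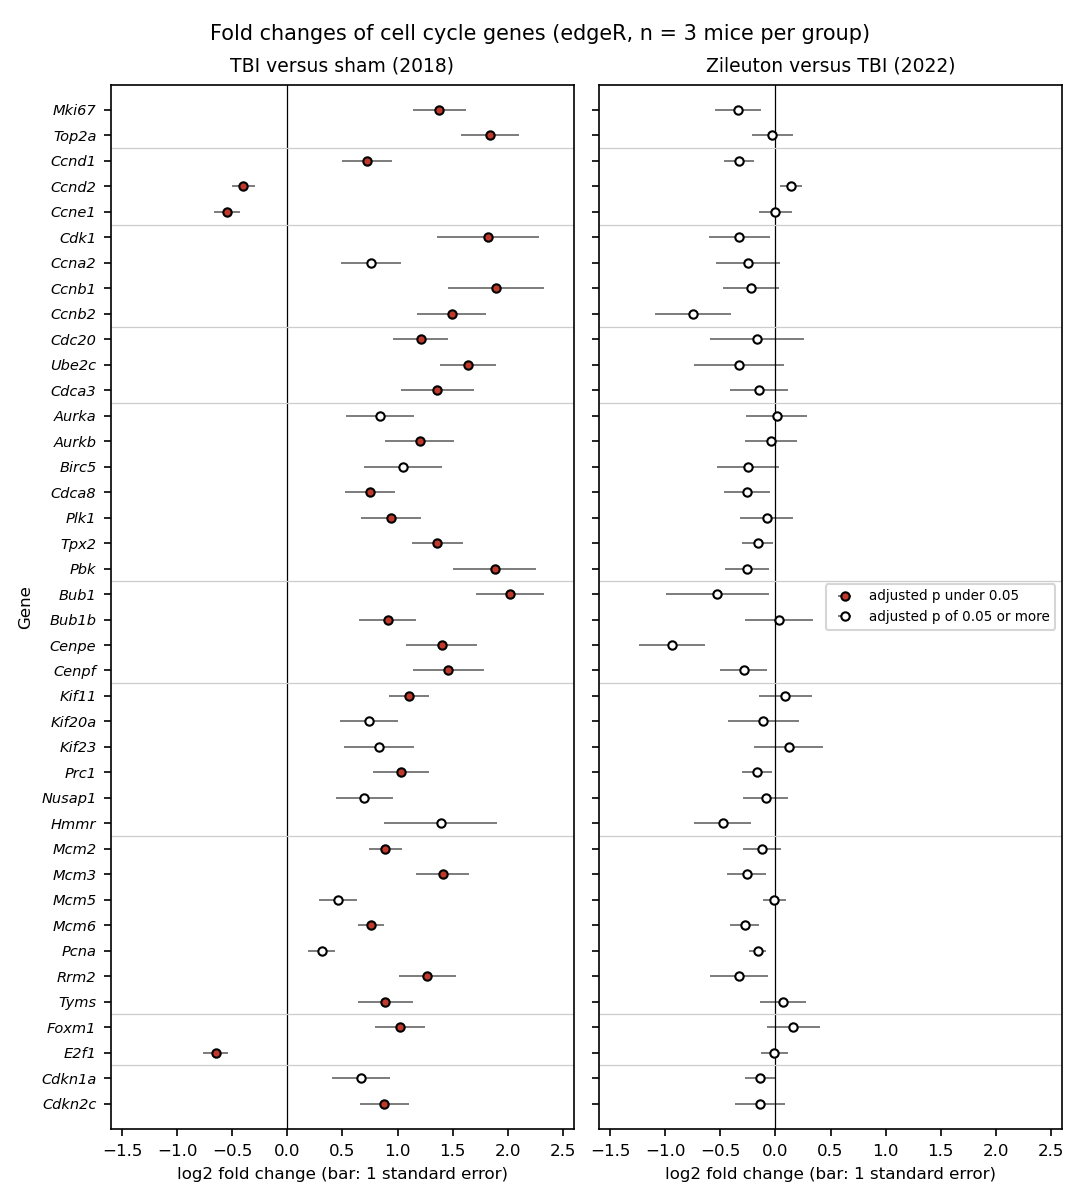
Log2 fold change of each member with 1 standard error in TBI against sham mice (left) and in zileuton-treated against TBI mice (right), with 3 mice per group; filled points have an adjusted p under 0.05. On the left 27 filled points lie above 0 and 3 below it, and on the right no point is filled and 32 of 40 lie below 0.

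The size of the difference depended on the mouse. TBI mouse 3 had the highest CPM of the 3 TBI mice in 40 of 40 members, against 37.7% of all genes tested. TBI mouse 1 had the lowest in 32, against 32.4%. Set against the mean of the sham mice, the members' median log2 value was 0.71 in TBI mouse 1, 0.86 in mouse 2 and 1.38 in mouse 3. Without TBI mouse 3 edgeR called 21 members higher and 3 lower, with a median log2 fold change of 0.76. Sham mouse 2 had the lowest CPM of the sham mice in 23 members, against 34.8% of all genes tested. Without sham mouse 2, 17 members were called higher and 2 lower. The share of all genes called in these 2 fits is not given here. Of the 30 calls, 18 held in every alternative that tested them. Of the members not called, 8 passed in at least 1 alternative, namely Aurka, Birc5, Ccna2, Cdkn1a, Hmmr, Kif20a, Kif23 and Nusap1.

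**Figure D4:**
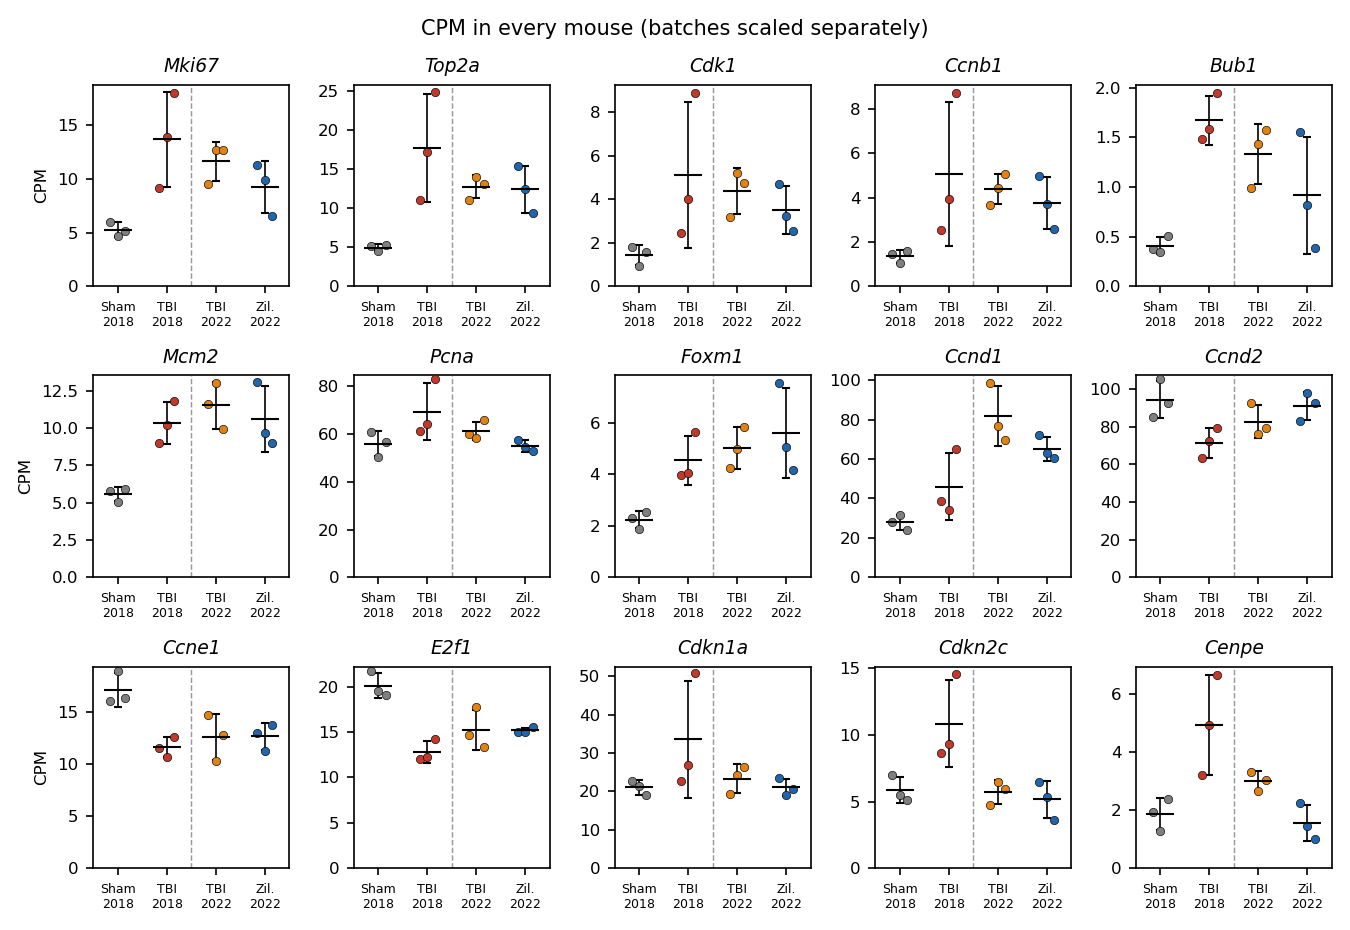
CPM of 15 members in every mouse (points), with the group mean (bar) and SD; the dashed line separates the batches, whose values were scaled separately. Bub1, Mcm2 and Top2a show sham and TBI mice apart, Ccne1 and E2f1 the reverse order, and the zileuton-treated mice overlap the TBI mice in all but Pcna and Cenpe.

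Markers of several cell types also differed after TBI, and their order among the TBI mice did not always follow that of the members. All 9 markers of activated microglia and macrophages were called higher, and their summed level was 27.5 to 32.4 CPM in sham mice and 1760, 1640 and 3600 CPM in TBI mice 1 to 3, highest in mouse 3. All 9 markers of homeostatic microglia rose as well (310 to 358 CPM in sham and 882 to 1120 CPM in TBI mice), as did all 5 of astrocytes (840 to 1080 against 3700 to 4440 CPM) and 4 of 5 of oligodendrocyte precursors (143 to 158 CPM in sham mice and 230, 261 and 217 CPM in TBI mice 1 to 3, lowest in mouse 3). Fibroblast and pericyte markers, 5 of 6 called higher, summed to 144 to 152 CPM in sham mice and to 449, 204 and 770 CPM in TBI mice 1 to 3. Endothelial markers, 4 of 7 called higher, summed to 64.7 to 85.3 CPM in sham mice and to 122, 144 and 90.2 CPM in TBI mice 1 to 3, also lowest in mouse 3. Of the neuron markers 3 of 6 were called lower, and their sum was 6070 to 8670 CPM in TBI mice. Neutrophil and granulocyte markers were at 0.605 to 1.37 CPM in sham mice and at 15.2, 25.0 and 58.6 CPM in TBI mice 1 to 3. Only S100a8, S100a9 and Ngp of these 7 were tested, and all 3 were called higher. Most of the sum came from S100a8 and S100a9, while Ly6g, Mpo, Camp and Elane were at 0 to 12 counts in TBI mice. T cell markers summed to 9.85, 8.47 and 22.3 CPM in sham mice 1 to 3 and to 4.78, 30.4 and 9.24 CPM in TBI mice 1 to 3, mostly from Cd4, and Cd8a was at 0 counts in the sham mice. Of 3 T cell markers tested Cd3g was called higher (0, 4 and 0 counts in sham and 12, 16 and 26 in TBI mice). Of 2 B cell markers tested Cd79b was called higher (11, 11 and 7 against 63, 80 and 68 counts), and the B cell sum was 0.652 to 1.28 CPM in sham and 2.16 to 2.20 CPM in TBI mice. Markers of neural progenitors were mixed, with Eomes, Nes and Igfbpl1 called higher and Dcx lower among 9. Of the erythroid markers, the embryonic globins Hba-x and Hbb-y were called lower. The part of each cell type in the members' levels was not tested.

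On the FPKM scale, which divides by gene length and so allows genes to be compared, Pcna was the highest of the members in both groups, at 22.8 ± 2.02 FPKM in sham and 29.3 ± 4.69 FPKM in TBI mice (SD, n = 3). The next in sham mice were Ccnd2, Ccne1, E2f1, Ccnd1 and Cdkn1a, at 9.83, 6.28, 6.26, 5.82 and 5.81 FPKM. After TBI the order was Ccnd1 (9.89 FPKM), Cdkn1a (9.58 FPKM), Ccnd2 (7.73 FPKM), Ccne1 (4.44 FPKM) and E2f1 (4.13 FPKM), so that, after Pcna, the 5 highest members were the same G1 cyclins, E2f1 and Cdkn1a in both groups. Mitotic genes stayed lower. Top2a went from 0.538 to 2.0 FPKM, Ccnb1 from 0.318 to 1.22 FPKM and Bub1, the lowest member in sham mice, from 0.0923 to 0.390 FPKM.

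The other cell cycle genes, a list of 148 that are not members, were more often called higher than lower. After TBI 62 of them were called higher and 4 lower, with a median log2 fold change of 0.47, where 16.8% of all genes tested were called higher and 11.2% lower. Among 70 mitosis genes 34 were higher and 1 lower (median 0.87), among 37 replication genes 12 and none (median 0.32), among 27 G1 regulators 10 and 1 (median 0.14) and among 14 genes of p53 and its targets 6 and 2 (median 0.26). The share called in either direction was 57.1% for p53 and its targets, 50% for mitosis, 40.7% for G1 regulators and 32.4% for replication. The last of these was near the 28.0% of all genes called in either direction. All calls in the replication list were higher, however, where 16.8% of all genes were called higher. The lists were not compared by a test. In the mitosis list Nuf2, a kinetochore protein, was at 115, 118 and 135 counts in sham mice and at 318, 327 and 357 counts in TBI mice (log2 fold change 1.43, SE 0.175, adjusted p = 0.000494). Ncaph, a condensin subunit, was at 39, 50 and 56 counts in sham mice and at 160, 172 and 206 counts in TBI mice (1.88, SE 0.251, adjusted p = 0.00079). In both genes the groups were far apart. Cit, the citron kinase of cytokinesis that neurons also express, was the mitosis gene called lower, from 120 ± 7.55 to 81.5 ± 10.7 CPM (SD, n = 3).

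Among replication genes Uhrf1, which keeps DNA methylation at replication forks, rose most surely, from 80, 89 and 75 counts in sham mice to 202, 237 and 310 counts in TBI mice (log2 fold change 1.61, SE 0.250, adjusted p = 0.00179). Pold1, a catalytic subunit of a replicative polymerase, followed (0.60, SE 0.134, adjusted p = 0.0101).

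Among G1 regulators Rbl1, the pocket protein p107, was at 79, 82 and 77 counts in sham mice and at 247, 203 and 262 counts in TBI mice (log2 fold change 1.57, SE 0.210, adjusted p = 0.000813). Cdk4, the partner of the D-type cyclins, went from 39.6 ± 1.81 to 59.7 ± 4.57 CPM (SD, n = 3), without overlap (0.59, SE 0.0831, adjusted p = 0.00108). Cdk6 was called higher too (0.70, adjusted p = 0.0191). Among the D-type cyclins Ccnd3 (0.66, adjusted p = 0.0127) and Ccnd1 were called higher and Ccnd2 lower. Mycn was the G1 regulator called lower (−0.48, SE 0.157, adjusted p = 0.0496). Of the p53 list, Eda2r, a receptor gene that p53 induces, was at 18, 16 and 6 counts in sham mice and at 89, 104 and 126 counts in TBI mice (log2 fold change 2.97, SE 0.426, adjusted p = 0.00118), and Trp53inp1 rose by 0.69 (SE 0.103, adjusted p = 0.00142). Both p53 targets called lower, Zmat3 and Plk2, are among the highest of that list, and went from 115 to 85.7 CPM and from 260 to 209 CPM.

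With zileuton no member changed by the adjusted test. In the 2022 comparison edgeR called 0 of 40 members at an adjusted p under 0.05, as it called 0 of the 17363 genes tested (0.0%), and DESeq2 called 0 members too. At an unadjusted p under 0.05, the threshold that the study's methods state, 2 members passed, both lower, while 6.83% of all genes did, 3.90% as lower and 2.93% as higher. The log2 fold change was below 0 for 32 of 40 members, against 49.3% of all genes tested (50.7% were above 0), with a median of −0.16 against 0.00. Over all genes tested in this comparison, the log2 fold change rose with gene length (correlation rho 0.378). In the comparison of TBI with sham rho was −0.115. The members' median with zileuton after removing that trend is not given here, so their lean below 0 cannot be told apart from it. DESeq2 gave 3 members at an unadjusted p under 0.05, with no share of all genes given for that fit.

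Cenpe (ENSMUSG00000045328), a kinetochore motor, had the most negative log2 fold change of the members. It was at 3.33, 2.66 and 3.03 CPM in TBI mice 2, 3 and 6 and at 2.24, 1.45 and 1.01 CPM in zileuton-treated mice 2, 3 and 6. All zileuton-treated mice lay below all TBI mice, but the difference did not pass after adjustment (log2 fold change −0.94, SE 0.301, unadjusted p = 0.0140, adjusted p = 0.713). Ccnd1 was at 98.6, 76.9 and 69.8 CPM in TBI mice and at 72.2, 63.0 and 60.5 CPM in zileuton-treated mice. The groups overlapped, since zileuton-treated mouse 2 exceeded TBI mouse 6 (log2 fold change −0.33, SE 0.133, unadjusted p = 0.0393, adjusted p = 0.713). Prc1 and Pcna were the other members with no overlap, both lower, which makes 3 of 40 against 7.04% of all genes, and no member was higher without overlap, against 6.51%. Pcna was at 60.0, 58.2 and 65.6 CPM in TBI mice and at 57.6, 54.6 and 52.8 CPM in zileuton-treated mice (log2 fold change −0.16, SE 0.0760, adjusted p = 0.713).

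The remaining named members overlapped between the groups. Top2a was at 11.1, 14.0 and 13.1 CPM in TBI mice and at 15.4, 12.5 and 9.34 CPM in zileuton-treated mice (log2 fold change −0.03, SE 0.185). Cdk1 was at 3.19, 5.20 and 4.74 CPM in TBI mice and at 4.70, 3.24 and 2.54 CPM in zileuton-treated mice (−0.33, SE 0.277). Ccnb1 gave −0.22 (SE 0.256), Bub1 −0.53 (SE 0.468) and Mcm2 −0.12 (SE 0.172). For these genes the spread among the 3 zileuton-treated mice was as wide as the distance between the groups.

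Foxm1 had the largest positive log2 fold change, 0.16 (SE 0.241), with 4.25, 4.98 and 5.85 CPM in TBI mice and 7.56, 5.06 and 4.18 CPM in zileuton-treated mice. Zileuton-treated mouse 2 was the highest and mouse 6 the lowest of all 6. The log2 fold changes of the genes that were lower after TBI were small. Ccnd2 gave 0.14 (SE 0.0979), Ccne1 0.00 (SE 0.153) and E2f1 −0.01 (SE 0.122). Mcm5 gave −0.01 (SE 0.102), and the CDK inhibitors Cdkn1a and Cdkn2c −0.14 each (SE 0.138 and 0.230).

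The members' levels differed between the zileuton-treated mice. Mouse 2 had the highest CPM of the 3 in 32 of 40 members, against 36.7% of all genes tested, and mouse 6 the lowest in 33, against 31.7%. The members' median log2 value against the mean of the TBI mice was 0.11 in mouse 2, −0.20 in mouse 3 and −0.46 in mouse 6. Among the TBI mice of 2022, mouse 6 was highest in 22 members, against 36.7% of all genes tested. Mouse 2 of that group was lowest in 24, against 36.4%. Without zileuton-treated mouse 2, 8 members had an unadjusted p under 0.05, and without mouse 6 there was 1. The share of all genes passing in those fits is not given here, so these counts cannot be read as particular to the members. Several marker lists were also highest in mouse 2 and lowest in mouse 6. Markers of activated microglia and macrophages were at 2320, 1360 and 1240 CPM in zileuton-treated mice 2, 3 and 6 and at 1620, 2590 and 3860 CPM in TBI mice 2, 3 and 6. All 9 of those markers had a log2 fold change below 0 and none was called. In zileuton-treated mice 2, 3 and 6 the sums were also highest in mouse 2 and lowest in mouse 6 for homeostatic microglia (1310, 1090 and 981 CPM), astrocytes (5620, 3850 and 3840 CPM), fibroblasts and pericytes (270, 162 and 122 CPM), endothelial cells (266, 228 and 209 CPM) and oligodendrocyte precursors (260, 248 and 228 CPM). Neuron markers were lowest in mouse 2 and highest in mouse 6, at 6650, 7130 and 7640 CPM. In TBI mice 2, 3 and 6 of that batch homeostatic microglia markers were at 902, 1260 and 1360 CPM and neuron markers at 7450, 7390 and 6220 CPM. The part of these cells in the members' levels was not tested.

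The comparisons share no mice and came from separate tables, so their values are set side by side only. Of the 27 members higher after TBI, 23 had a log2 fold change below 0 with zileuton (median −0.22), and both members at an unadjusted p under 0.05 were among them. Of the 3 members lower after TBI 1 was below 0 (median 0.00), and of the 10 not called 8 were (median −0.13). Of the 148 other cell cycle genes 145 were tested with zileuton and none was called. At an unadjusted p under 0.05, which 6.83% of all genes passed, 7 of the 145 passed. Of these, 6 were lower (Slbp, Smc4, Shcbp1, Ckap2, Prim1 and Myc) and 1 was higher (Clspn, log2 fold change 0.74, SE 0.251). The lowest of these was Shcbp1, at −0.95 (SE 0.369, adjusted p = 0.713), and these genes were named after their values were seen.

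Mki67 differed in direction with zileuton between the deposited scales, as did Mcm5, E2f1 and Ccne1, whose log2 fold changes lay between −0.05 and 0.07 on either scale. Mean TPM also went against the counts for Plk1, Aurkb and Bub1b, whose log2 fold changes from counts were −0.08, −0.04 and 0.03. The estimated counts of Mki67 gave 9.56, 12.7 and 12.7 CPM in TBI mice 2, 3 and 6 and 11.3, 9.87 and 6.55 CPM in zileuton-treated mice 2, 3 and 6 (log2 fold change −0.34, SE 0.210, adjusted p = 0.735). The deposited TPM of the same libraries was 1.69, 2.22 and 2.09 in TBI mice and 3.86, 4.95 and 7.60 in zileuton-treated mice. The counts overlapped and leaned lower, whereas the TPM of every zileuton-treated mouse lay above that of every TBI mouse (limma on log2(TPM + 1), log2 fold change 1.07, adjusted p = 0.734). The length implied by the ratio of count to TPM was 0.510, 0.337 and 0.145 of the TBI mean in zileuton-treated mice 2, 3 and 6. The highest of the 6 libraries was 7.26 times the lowest, where the median over 14752 genes was 1.14 and 1.94% of genes exceeded 2. In the 2018 tables this ratio was 1.00 for every gene. Which transcripts of Mki67 were used in each library was not tested.

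**Figure D5:**
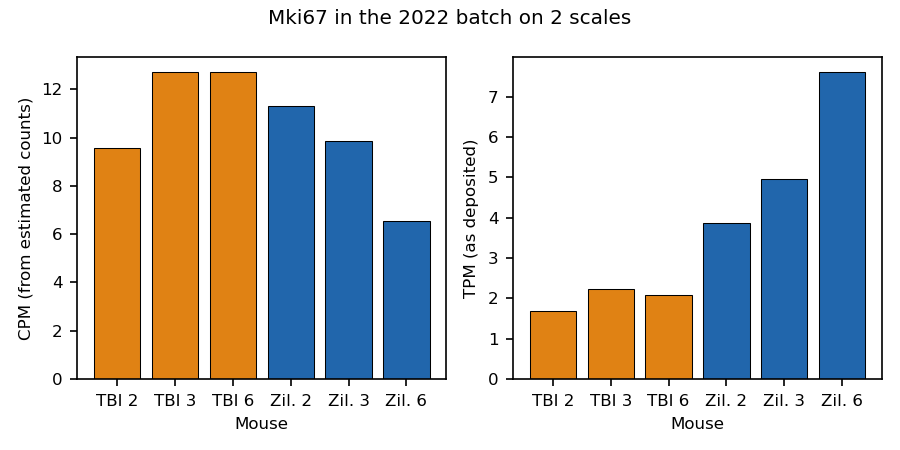
Mki67 in the 6 libraries of 2022 as CPM from the estimated counts (left) and as the deposited TPM (right); each bar is 1 mouse. The zileuton-treated mice run from 6.55 to 11.3 CPM against 9.56 to 12.7 CPM in TBI mice, while in TPM they run from 3.86 to 7.60 against 1.69 to 2.22.

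Some members share bases with neighbours, and no source used here states whether counting used the strand. In GENCODE annotation of GRCm38, 13 of the 40 overlap exons of another gene. The largest shares are 29.3% of the exonic bases of Kif20a (with Cdc23), 23.4% of Ccnd1 (with LTO1), 22.8% of Ube2c (with Tnnc2), 12.5% of Ccna2 (with Exosc9) and 11.1% of Prc1 (with Rccd1), all on the opposite strand. For these 5 genes part of the count may belong to the neighbour. Processed pseudogenes named after Ccnb1, Ccnb2, Pcna and Tyms could also share reads with them.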

How the data were processed

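RNA-seq of mouse brain (4 groups of 3 mice) was analysed from the deposited tables. For 2018 the authors deposited raw counts, whole numbers per gene, and FPKM, which equal those counts rescaled by library total and gene length. For 2022 the authors deposited estimated counts, 13.7% of which are not whole, and TPM. The submitters' processing notes list HISAT2, featureCounts, Subread, DESeq2 and GRCm39, without roles. The estimated counts were rounded for the tests, although the plan had assumed raw counts.

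Each table was fitted alone with edgeR 4.0.16 in R 4.3.3 (TMM, filterByExpr, glmQLFit, glmQLFTest), with Benjamini-Hochberg adjustment of the p-values over all genes tested. CPM use TMM-scaled library sizes. In 2018, 62.3% to 64.4% of counts from 1 to 20 were even, so halved counts were an alternative, as both reads of a pair may have been counted. Other alternatives were DESeq2 1.42.0, its size factors, library totals alone, a fit with no filter, a minimum of 10 counts per library, a robust fit, limma 3.58.1 on log2(value + 1) and log2(value + 0.1) where FPKM or TPM averaged 0.5 or more, a replicate block, leaving out each mouse and, added after seeing the data, removing a trend with gene length. Same-numbered mice did not deviate together (r of −0.094 to −0.023 in 2018 and −0.282 to 0.063 in 2022), so no pairing was assumed. The fits were tested on simulated data. Replicates are separate mice by their labels, and 3 against 3 cannot give an exact permutation p under 0.1.

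Members were accounted for by role. Values per mouse are given for a set of 14 genes, for the largest positive and negative fold changes and for members called against their group; of the other cell cycle genes, the 2 with the smallest p per list and those called against their list are given. Values per mouse of Ccna2, Kif11 and Hmmr were added after they were seen, as were the values of Cdk6 and Ccnd3. The members and lists were chosen with earlier results of these data known. Promoters came from RefSeq (GRCm38.p6) and overlaps from GENCODE (GRCm38). Coordinates are given only for the printed promoter stretches, in GRCm38.p6, because the processing notes name another build, GRCm39. Every column of values per sample was used.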

Additional observations from a re-analysis of the deposited data

How the results depend on the processing

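The median of the members after TBI, 1.03, stayed between 0.88 and 1.08 under the alternatives other than limma on log2(FPKM + 1), where it was 0.50 over the 34 members tested, and between 0.76 and 1.14 when a mouse was left out. On that limma scale 19 members were called (17 higher, 2 lower). With a mouse left out 19 to 34 were called, fewest without sham mouse 2. Of the other cell cycle genes 38 were called with log2(FPKM + 1), 41 with log2(FPKM + 0.1) and 38 to 58 when a mouse was left out (38 without sham mouse 3, 41 without sham mouse 2 and 42 without sham mouse 1). The limma scales tested 34 members and 100 other cell cycle genes, and a pseudocount of 1 shrinks the fold change of genes near 1 FPKM. The replicate block, which the pairing check did not call for, gave 25 member calls and 49 calls of other cell cycle genes after TBI and 2 members at an unadjusted p under 0.05 with zileuton. DESeq2 called 37 members after TBI, the 30 of edgeR among them. With the length trend removed 27 of those 30 were called, and with halved counts 30 of 30. The share of all genes called is given for the main fit only. A change in these counts therefore cannot be told apart from a change in calling over all genes.

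With zileuton no alternative called a member or another cell cycle gene at an adjusted p under 0.05. The number of members at an unadjusted p under 0.05 ran from 1 to 8 when a mouse was left out, and the median from −0.34 to −0.06. That number has no share of all genes in the same fits beside it. Directions turned for Top2a, Ccne1, Mcm5 and E2f1, with log2 fold changes near 0, and for Mki67. They also turned for Foxm1 and Cdkn2c, at 0.16 and −0.14 in the main fit, where a zileuton-treated mouse was left out. Mki67 was at 1.07 and 1.36 in limma on log2(TPM + 1) and log2(TPM + 0.1), Mcm5 at 0.07 and E2f1 at 0.05 on both, and Ccne1 at −0.05 on both, −0.01 with library totals alone and −0.0031 without a filter. With a mouse left out, the log2 fold change ran from −0.22 to 0.14 for Top2a, −0.12 to 0.13 for Ccne1, −0.06 to 0.03 for Mcm5, −0.10 to 0.11 for E2f1, −0.12 to 0.33 for Foxm1 and −0.34 to 0.06 for Cdkn2c. For the turned values the cause was not tested. Depth limits Bub1 most, which had 16 to 24 counts in sham mice and 11 in zileuton-treated mouse 6.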
